A study of Homo sapiens with 4 samples.

Results

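The genes described here are 38 genes of glycolysis and of the cellular response to low oxygen, chosen by symbol: the glucose and lactate transporters, the glycolytic enzymes with their regulators, the enzymes that decide the fate of pyruvate, and the oxygen sensors and targets of hypoxia-inducible factor (HIF). They were chosen with earlier results of these data known, so counts of members beside all genes are descriptions. Of these 38 genes, 34 had a named probe set among the 17687 named genes of the array. SLC16A1, SLC16A3, PFKFB4 and CA9 were not analysed here. Genes were called measured if their brightest array had a log2 signal above 6.51, the median of such maxima among named genes, and 29 of the 34 did so, among 8843 measured genes in all. SLC2A3, PFKFB3, ENO2, EGLN3 and ADM did not, and none of their values exceeded the background set by negative controls.

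Total RNA came from 22Rv1 cells, an established human prostate cancer line that grows without testicular androgen (castration-resistant). Cells were held in medium with hormone-stripped serum and transfected with siControl, a control siRNA, or with siOCT1, which is directed at the octamer-binding transcription factor OCT1. Starting 48 h after transfection they received ethanol vehicle or 10 nM dihydrotestosterone (DHT), the potent androgen, for 24 h. This gave 4 groups (siControl with vehicle, siControl with DHT, siOCT1 with vehicle and siOCT1 with DHT), each of 1 whole-transcript array, so differences between arrays were not replicated and precision is limited by having 4 arrays in all. The level of OCT1 itself was not analysed here, so siOCT1 stands for the transfection as labelled.

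In glycolysis, cells take up glucose through carriers such as GLUT1 (gene SLC2A1), trap it by phosphorylation, split it and recover ATP while making pyruvate. Lactate dehydrogenase turns pyruvate into lactate, whereas pyruvate dehydrogenase, which is held back by the pyruvate dehydrogenase kinases, sends it to the mitochondria. HIF is a dimer of an oxygen-labile alpha subunit, such as HIF1A, with ARNT. With oxygen present, the EGLN prolyl hydroxylases mark the alpha subunit for destruction by VHL. When it is stable, HIF binds a short core motif and raises many glycolytic genes, PDK1, the angiogenic factor VEGFA and the mitophagy receptor BNIP3. Normal prostate epithelium secretes citrate, and prostate cancers are known to shift their use of glycolysis and the citrate cycle as they progress.

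Signal was the log2 RMA value of the deposited table, with array medians of 5.99 to 6.03. Between 327 and 379 values per array, those of GAPDH, LDHA, LDHB and ENO1 among them, exceeded 16, which a 16-bit scan cannot reach before processing. Folds are therefore given on the scale of the deposited values, which may be expanded. Background, the 95th percentile of 612 negative control probe sets, was 6.62 and 6.99 for siControl with vehicle and DHT and 7.39 and 6.91 for siOCT1. It was highest on the siOCT1 vehicle array, and 24 of the 29 measured members lay above it on all 4 arrays. Of 9 luminal epithelial markers with a probe set, 8 lay above background on every array and TMPRSS2 lay below it on every array. None of 12 basal, stromal, immune and endothelial markers lay above it on all arrays.

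Genes of glycolysis and many HIF targets had lower signal in siOCT1 cells. Of the 29 measured members, 16 fell and 1 rose, where "fell" and "rose" mean that an additive limma model of siRNA and ligand over the 4 arrays gave an adjusted p under 0.05 (Benjamini-Hochberg over all 8843 measured genes). Over all measured genes the shares were 15.3% called lower and 9.1% called higher. The lactate dehydrogenase gene LDHA, the pyruvate dehydrogenase kinase gene PDK1, BNIP3 and VEGFA were among those that fell, and the exception was ANKRD37, an ankyrin repeat gene known as a HIF target, which rose. The median difference over the 29 members was -1.16 in vehicle and -0.61 in DHT on the log2 scale, against -0.06 and -0.07 over all measured genes. By size alone, 16 members were at least 1.5-fold lower in both ligand states, against 18.7% of all measured genes, and 1 was higher in both, against 12.2%. For 23 members both siOCT1 arrays lay below both siControl arrays, against 34.5% of all measured genes, and for 1 both lay above, against 27.0%. In vehicle alone 22 members were at least 1.5-fold lower, against 28.7%, and 1 higher, against 22.9%. With arrays centred on positive controls the fit still called 17 members, but over all genes it called 1344 lower and 1218 higher, against 1353 and 805 as deposited.

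With 1 residual degree of freedom (prior 5.85), the fit's residual is the difference of the siRNA effect between ligand states, not the spread between repeat cultures. Bulk RNA does not tell fewer expressing cells from less RNA per cell.

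**Figure D1:**
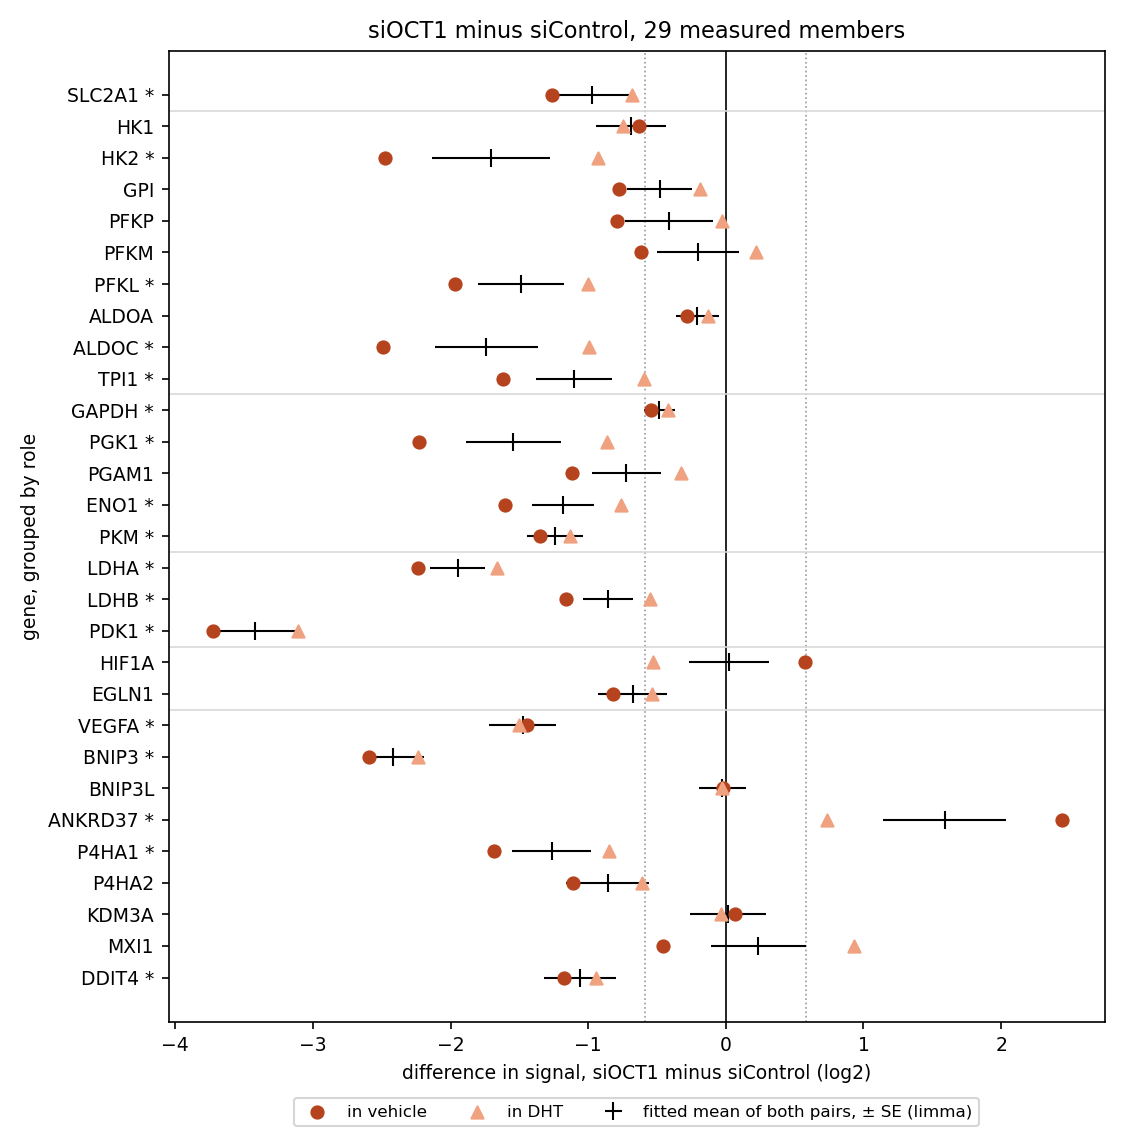
Difference in log2 signal, siOCT1 minus siControl, for the 29 measured members grouped by role (transport, upper glycolysis, lower glycolysis, pyruvate fate, oxygen sensing, HIF targets). Circles are the difference in vehicle and triangles that in DHT (1 array each), black marks the fitted mean ± SE, dotted lines 1.5-fold and asterisks an adjusted p under 0.05; 16 members with an asterisk lie left of 0 and ANKRD37 lies right of it.

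The promoters of the 6 called members with the largest fitted differences, 5 that fell and ANKRD37, which rose, are shown so that they can be read beside the motif through which HIF acts. The order of fitted differences that chose PDK1, HK2 and ANKRD37 rests partly on values below background. Each line gives the 250 bases before a single RefSeq start per gene in GRCh38.p14, 5′ to 3′ on the gene's strand. Capitals mark the HIF core motif (ACGTG or GCGTG on either strand). Any other starts of these genes were not scanned. They lie at chr11:18394313-18394562 on the plus strand (LDHA), chr10:131981924-131982173 on the minus strand (BNIP3), chr17:28576896-28577145 on the minus strand (ALDOC), chr2:74833877-74834126 on the plus strand (HK2), chr2:172555123-172555372 on the plus strand (PDK1) and chr4:185396591-185396840 on the plus strand (ANKRD37).
LDHA: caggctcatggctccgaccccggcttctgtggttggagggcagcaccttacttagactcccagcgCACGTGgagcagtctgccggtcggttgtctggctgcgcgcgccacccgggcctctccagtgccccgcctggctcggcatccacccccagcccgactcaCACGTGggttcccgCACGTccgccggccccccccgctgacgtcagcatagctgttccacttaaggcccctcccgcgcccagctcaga
BNIP3: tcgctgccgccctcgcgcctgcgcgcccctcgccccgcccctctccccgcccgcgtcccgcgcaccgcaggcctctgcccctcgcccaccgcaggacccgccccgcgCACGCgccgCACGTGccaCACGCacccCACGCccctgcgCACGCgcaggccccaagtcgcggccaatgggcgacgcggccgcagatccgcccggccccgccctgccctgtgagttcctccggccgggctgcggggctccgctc
ALDOC: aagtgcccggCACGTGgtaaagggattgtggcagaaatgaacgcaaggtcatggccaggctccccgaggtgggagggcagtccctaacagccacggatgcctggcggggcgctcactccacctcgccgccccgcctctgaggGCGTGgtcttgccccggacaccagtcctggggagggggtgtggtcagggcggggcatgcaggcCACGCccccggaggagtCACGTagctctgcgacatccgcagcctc
HK2: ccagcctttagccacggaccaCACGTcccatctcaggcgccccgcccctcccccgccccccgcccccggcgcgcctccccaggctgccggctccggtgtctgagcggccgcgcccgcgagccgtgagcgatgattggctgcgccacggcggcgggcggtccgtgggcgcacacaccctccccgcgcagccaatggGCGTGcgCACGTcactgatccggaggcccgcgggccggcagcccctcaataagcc
PDK1: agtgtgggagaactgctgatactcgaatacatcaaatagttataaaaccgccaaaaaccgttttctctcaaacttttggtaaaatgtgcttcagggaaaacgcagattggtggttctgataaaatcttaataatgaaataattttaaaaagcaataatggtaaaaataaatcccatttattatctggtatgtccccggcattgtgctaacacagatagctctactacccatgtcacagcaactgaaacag
ANKRD37: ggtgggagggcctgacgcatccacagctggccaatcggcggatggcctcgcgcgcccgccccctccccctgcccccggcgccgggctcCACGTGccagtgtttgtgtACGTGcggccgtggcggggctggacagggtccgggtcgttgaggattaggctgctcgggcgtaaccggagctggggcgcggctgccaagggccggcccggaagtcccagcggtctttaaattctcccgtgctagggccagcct

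Counting overlapping matches as 1 site, the window held 3 core sites in LDHA, 5 in BNIP3, 4 in ALDOC, 3 in HK2 and 2 in ANKRD37, which rose. That of PDK1 held none and had the lowest GC content of the 6, 35.6%, against 68.4% to 81.6%. The absence in PDK1 is that of the window shown and does not cover any other start of the gene. In LDHA 2 of the sites were the E-box CACGTG, the motif of MYC and related factors, which contains the core on both strands, and BNIP3, ALDOC and ANKRD37 had 1 each. Promoters were found for 27 of the 29 measured members; VEGFA and BNIP3L had none. The core was present in 10 of 15 members that fell and in 6 of 12 other measured members, against 50.6% of 14250 promoters of named genes. Those named genes, unlike the members counted, include genes below the measured level, and a share among measured genes alone was not taken. The E-box was present in 4 of the 15 and 1 of the 12, against 7.7%, and the octamer ATGCAAAT (either strand) in 0 of 27, against 1.59%. A match is a description of these letters in this window and no evidence of binding.

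The genes that set the fate of pyruvate had the lowest median of the roles with more than 1 measured gene. All 3 members fell, against 15.3% of all measured genes. LDHA, the muscle-type subunit of lactate dehydrogenase, had a signal of 16.28 in siControl cells with vehicle and 15.79 with DHT, and of 14.05 and 14.13 in siOCT1 cells. Both siOCT1 arrays lay below both siControl arrays, and LDHA fell by 1.95 ± 0.20 (SE; adjusted p = 0.00223), a 3.86-fold difference. LDHB, the heart-type subunit, stood at 16.73 and 16.80 in siControl and at 15.58 and 16.24 in siOCT1 cells. It fell by 0.86 ± 0.18 (adjusted p = 0.0182), with a smaller difference in DHT, and this call was lost without an intensity trend in the fit (adjusted p over the alternatives from 0.0021 to 0.083). PDK1, which phosphorylates and restrains pyruvate dehydrogenase, had 9.35 and 8.72 in siControl cells and 5.62 and 5.61 in siOCT1 cells. Both siOCT1 values lay below background, so the PDK1 decrease was at least 3.89-fold (vehicle) and at least 3.51-fold (DHT). PDK1 fell in the fit (adjusted p = 0.00184), but it reached the measured level only on its siControl arrays. Fitted without that filter, PDK1 was still called (limma adjusted p = 0.00341). Its fitted difference of -3.42 depends on values below background and was -1.64 with dim values lifted to the siOCT1 vehicle background, where the call was kept.

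Its relatives among the kinases did not pass the test. PDK2, another pyruvate dehydrogenase kinase, stood 0.46 above siControl in vehicle and 0.54 above it in DHT (adjusted p = 0.158), and PDK3, with both siOCT1 values below background, was at least 1.09-fold and at least 1.86-fold lower (adjusted p = 0.108). Whether these differences depart from that of PDK1 was not tested.

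In lower glycolysis 4 of 5 measured enzymes fell, against 15.3% of all measured genes. Phosphoglycerate kinase (PGK1), the first ATP-yielding step, had 12.93 and 11.90 in siControl cells with vehicle and DHT and 10.71 and 11.04 in siOCT1 cells, a fall of 1.54 ± 0.35 (adjusted p = 0.022). The siControl array with vehicle was the highest, and the difference was 2.23 lower in vehicle against 0.86 lower in DHT. The enolase ENO1 had 16.28 and 15.73 in siControl and 14.68 and 14.97 in siOCT1 cells, and fell by 1.18 ± 0.23 (adjusted p = 0.0135). Pyruvate kinase (PKM), whose last step makes pyruvate, had 14.00 and 13.56 against 12.65 and 12.43. Its differences in both ligand states were close, and it fell by 1.24 ± 0.21 (adjusted p = 0.00894).

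GAPDH, often used as a reference gene, had 18.41 and 18.17 in siControl and 17.86 and 17.75 in siOCT1 cells and fell by 0.48 ± 0.11 (adjusted p = 0.0249). That call was lost under 4 of 9 alternatives, loess centring among them (adjusted p from 0.0188 to 0.215). The mutase PGAM1 stood at -1.12 in vehicle and -0.32 in DHT and did not pass (adjusted p = 0.0748).

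Of 9 upper glycolytic enzymes 4 fell, against 15.3% of all measured genes. The differences of ALDOC, PFKL and TPI1 were larger in vehicle than in DHT. The brain-type aldolase gene ALDOC had 12.28 and 10.90 in siControl cells and 9.79 and 9.91 in siOCT1 cells, with a fall of 1.74 ± 0.37 (adjusted p = 0.0191). Liver-type phosphofructokinase (PFKL), the committed step of the pathway, had 10.76 and 9.99 against 8.79 and 8.99, and fell by 1.49 ± 0.31 (adjusted p = 0.018). The triose isomerase TPI1 had 14.18 and 13.61 against 12.56 and 13.02, and fell by 1.10 ± 0.28 (adjusted p = 0.0317). Each of these genes separated the siRNAs on all 4 arrays, PFKL and ALDOC with the siOCT1 pair close together. The call of TPI1 was lost under 3 of 9 alternatives (adjusted p up to 0.0682).

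Hexokinase 2 (HK2), the inducible enzyme that traps glucose, had 8.35 and 7.58 in siControl cells and 5.88 and 6.65, both below background, in siOCT1 cells. The decrease was at least 1.95-fold (vehicle) and at least 1.59-fold (DHT), and HK2 fell by 1.70 ± 0.43 (adjusted p = 0.0313). When dim values were lifted to the siOCT1 vehicle background, the fitted difference was -0.57 and the call was lost (adjusted p from 0.00782 to 0.151 over 8 alternatives). The HK2 call was also lost without the filter on dim genes (limma adjusted p = 0.054). Hexokinase 1 (HK1), the widely expressed isoform, had 9.25 and 9.33 in siControl and 8.61 and 8.58 in siOCT1 cells. Its differences of -0.63 and -0.75 both passed 1.5-fold, but not the test (adjusted p = 0.0948).

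The other upper glycolytic enzymes did not pass either. The muscle-type aldolase ALDOA stood at -0.29 and -0.13 (adjusted p = 0.37), the isomerase GPI at -0.78 and -0.19 (adjusted p = 0.178), the muscle-type PFKM at -0.62 and 0.22 (adjusted p = 0.649) and the platelet-type PFKP at -0.03 in DHT (adjusted p = 0.377). In vehicle the siOCT1 value of PFKP lay below background, which makes the decrease at least 1.69-fold. So PFKL was called and its paralogs PFKM and PFKP were not, and likewise ALDOC and not ALDOA. The differences between paralogs were not tested, and a p that misses the threshold does not show that a gene kept its level.

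SLC2A1, the gene of the glucose carrier GLUT1, was the measured member of the transport group. It had 10.88 and 10.34 in siControl cells and 9.62 and 9.66 in siOCT1 cells, and fell by 0.97 ± 0.27 (adjusted p = 0.0424). Its call was lost under 3 of 9 alternatives (adjusted p up to 0.0721).

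**Figure D2:**
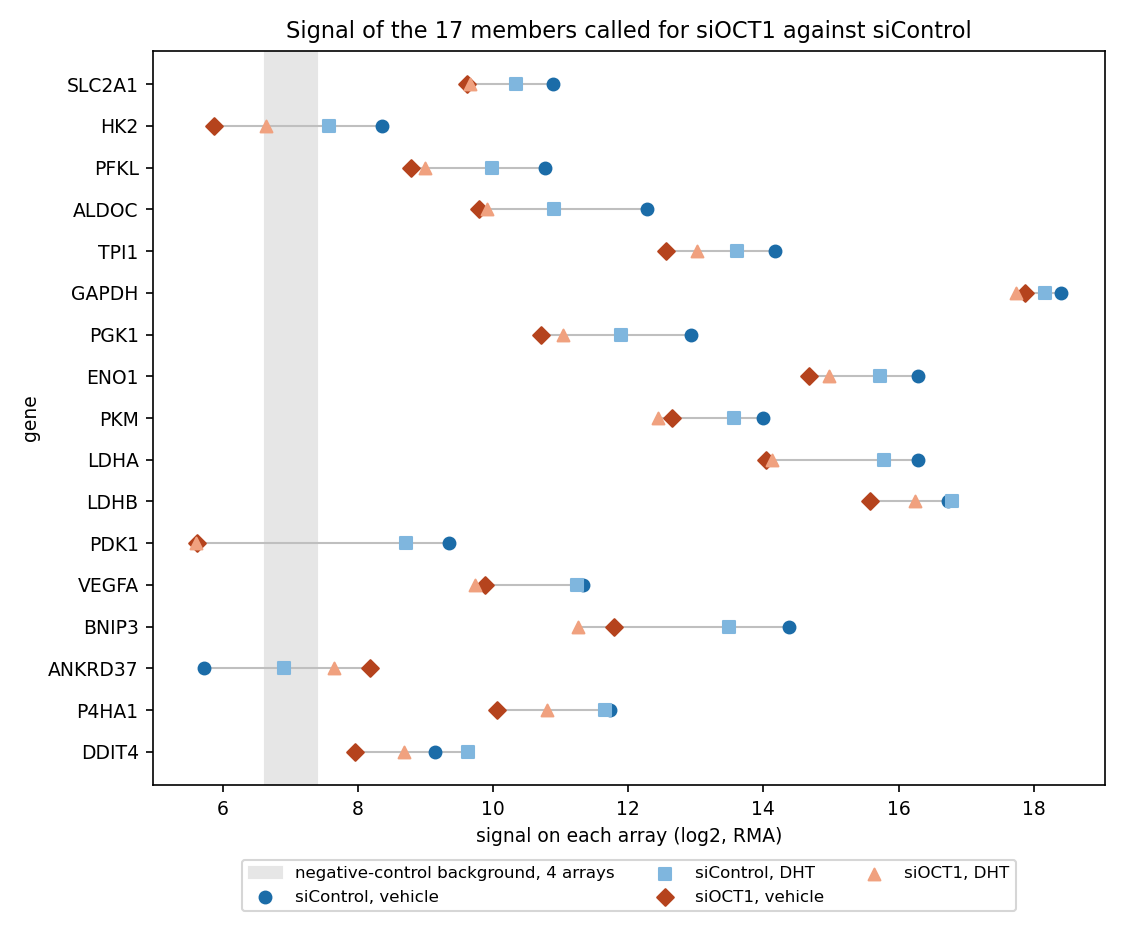
Log2 signal on each of the 4 arrays for the 17 members called for siOCT1 against siControl, with 1 point per array and the grey band spanning the negative-control background of the arrays. In 16 genes both siOCT1 points (diamond, vehicle; triangle, DHT) lie left of both siControl points (circle, vehicle; square, DHT), and in ANKRD37 they lie right of them.

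Of 9 measured HIF targets 4 fell and 1 rose, against 15.3% and 9.1% of all measured genes. BNIP3, a receptor that marks mitochondria for removal, had 14.38 and 13.49 in siControl cells with vehicle and DHT and 11.79 and 11.25 in siOCT1 cells. It fell by 2.42 ± 0.22 (adjusted p = 0.0017), 6.03-fold in vehicle and 4.72-fold in DHT. Its paralog BNIP3L had 14.95 and 14.30 against 14.93 and 14.27, so its siRNA differences were -0.02 and -0.03 (adjusted p = 0.929), which turned to a fitted 0.08 with arrays centred on positive controls and 0.15 with loess centring.

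VEGFA, the growth factor of blood vessels, had 11.33 and 11.24 in siControl and 9.89 and 9.74 in siOCT1 cells, a fall of 1.47 ± 0.24 (adjusted p = 0.00876). It was the 1 member of the 16 whose fall was not smaller in DHT than in vehicle. P4HA1, a collagen prolyl hydroxylase subunit, had 11.73 and 11.65 against 10.05 and 10.80, and fell by 1.26 ± 0.28 (adjusted p = 0.0222). Its paralog P4HA2 had 8.39 and 7.67 against 7.28 and 7.06, the siOCT1 vehicle value being below background. The P4HA2 decrease, at least 1.99-fold (vehicle) and 1.53-fold (DHT), did not pass the test (adjusted p = 0.0805).

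DDIT4, a stress-induced inhibitor of the kinase complex mTORC1, had 9.14 and 9.62 in siControl cells and 7.96 and 8.68 in siOCT1 cells. It fell by 1.06 ± 0.26 (adjusted p = 0.0296), a call lost under 2 of 9 alternatives (adjusted p up to 0.0585). ANKRD37 had 5.73 and 6.91, both below background, in siControl cells and 8.17 and 7.64 in siOCT1 cells. The increase was at least 2.93-fold (vehicle) and at least 1.57-fold (DHT), and ANKRD37 rose by 1.59 ± 0.45 (adjusted p = 0.0437), or by 0.51 with dim values lifted to the siOCT1 vehicle background. That call was lost under 3 of 8 alternatives (adjusted p up to 0.134). The histone demethylase gene KDM3A stood at 0.07 and -0.03 (adjusted p = 0.971), and MXI1, a MAX partner that opposes MYC, at -0.45 and 0.93 (adjusted p = 0.645).

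Neither measured gene of the oxygen sensor passed the test. HIF1A had 12.86 and 13.99 in siControl cells and 13.44 and 13.46 in siOCT1 cells, with differences of 0.58 in vehicle and -0.53 in DHT (adjusted p = 0.962). The siRNA groups overlapped, with both siOCT1 values between the siControl values. EGLN1, the main prolyl hydroxylase of HIF, had 10.65 and 10.18 against 9.83 and 9.65, differences of -0.82 and -0.54 (adjusted p = 0.0945). These are RNA levels, and the stability of the HIF1A protein, which oxygen sets, was not measured.

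The androgen comparison set DHT against vehicle for the same genes. No member was called for DHT against vehicle in the additive fit with limma, with 0 of 29 also without trend or with robust moderation, and 2 members were lower and 0 higher at an unadjusted p under 0.05 (BNIP3 and BNIP3L), against 5.73% and 7.77% of measured genes. Over all measured genes the fit called 0.679% higher and 0.305% lower. BNIP3L, a mitophagy receptor like BNIP3, was the member at least 1.5-fold lower under both siRNAs, at -0.66 in each (adjusted p = 0.168), against 4.37% of all measured genes, and 0 members were higher under both, against 4.86%. BNIP3 stood at -0.89 in siControl and -0.54 in siOCT1 cells (adjusted p = 0.231), and DDIT4 at 0.49 and 0.72 (adjusted p = 0.378).

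In siControl cells 24 of 29 members had a lower signal with DHT, against 51.9% of measured genes, and 10 were at least 1.5-fold lower, against 12.8%. The lowest were ALDOC at -1.38, PGK1 at -1.03, BNIP3 at -0.89, HK2 at -0.78 and PFKL at -0.78. The 2 higher by at least 1.5-fold, against 15.8%, were HIF1A, at 1.13, and ANKRD37, whose siControl values both lay below background. The count of lower members was 22 with arrays centred on positive controls, against 40.2% of genes, with 6 at least 1.5-fold lower, against 8.54%. That centring moves all genes of this difference by 0.15, and those of the siOCT1 difference in vehicle by 0.21.

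In siOCT1 cells 12 of 29 members were lower with DHT, against 48.5%, and 17 higher, against 51.5%. The 1 member at least 1.5-fold lower was BNIP3L, against 11.8% of measured genes. Higher by at least 1.5-fold were DDIT4 at 0.72, LDHB at 0.67, P4HA1 at 0.75, MXI1 at 0.62 and HK2, which lay below background on both siOCT1 arrays, against 14.1% of measured genes. The median over members was -0.53 in siControl and 0.04 in siOCT1 cells, against -0.03 and 0.02 over all measured genes. Centring on positive controls turned the siOCT1 median to -0.03.

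**Figure D3:**
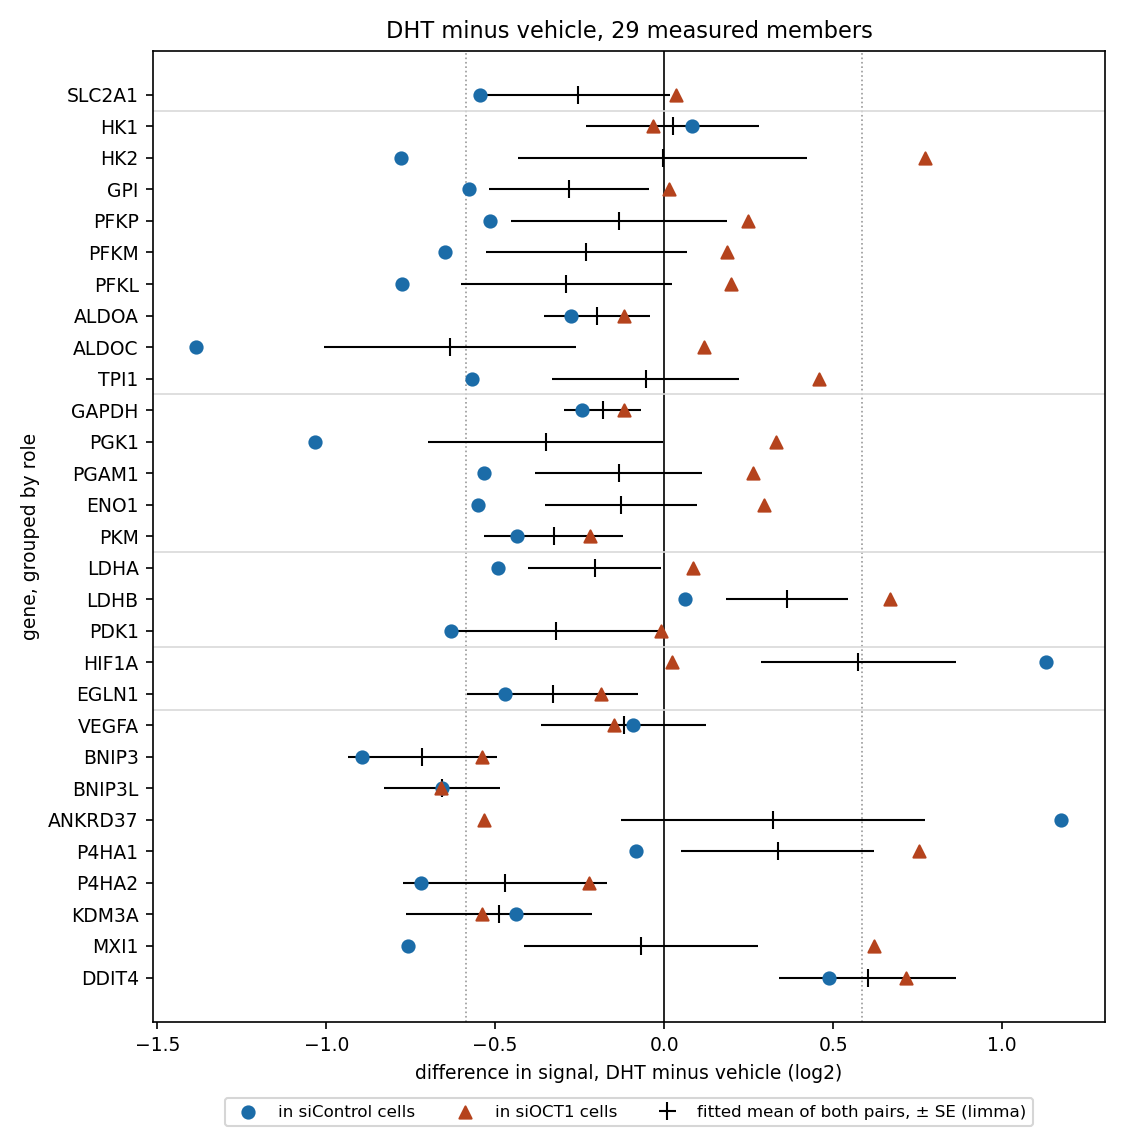
Difference in log2 signal, DHT minus vehicle, for the 29 measured members in the same order by role. Circles are siControl cells and triangles siOCT1 cells (1 array each), black marks the fitted mean ± SE and dotted lines 1.5-fold; circles lie left of 0 for 24 members and triangles for 12.

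The siRNA difference was therefore larger in vehicle than in DHT for most members. Among the 16 that fell, 15 fell less in DHT, against 65.9% of all 1353 genes called lower. The 15 include PDK1 and HK2, below background on both siOCT1 arrays, for which the order of the differences is not measured. The change of the DHT response, siOCT1 minus siControl, is the same quantity and was above 0 for 23 of 29 members, against 51.7% of measured genes, with a median of 0.58 against 0.02. Over the 24 members above background on all 4 arrays the median was 0.58, against 0.01 over all such genes. It was at least 1.5-fold upward for 14 members, against 17.5%, and downward for 2 (HIF1A and ANKRD37), against 18.0%. It is a single value per gene with no residual degrees of freedom, so it was not tested. With arrays centred on positive controls it was above 0 for 21 members, against 37.5% of genes, and the median was 0.37.

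Of members above background on all 4 arrays, the highest changes were 1.5 in ALDOC, 1.38 in MXI1 and 1.37 in PGK1, and the lowest -1.11 in HIF1A, -0.11 in HK1 and -0.10 in KDM3A. The siControl array with vehicle was the highest of the 4 for 22 of 29 members, against 28.8% of measured genes. The highest was siControl with DHT for 4, against 26.1%, siOCT1 with vehicle for 2, against 25.7%, and siOCT1 with DHT for 1, against 19.3%. The lowest was siOCT1 with vehicle for 14, against 30.4%, and siOCT1 with DHT for 11, against 21.7%. The siControl vehicle array enters both the siOCT1 difference in vehicle and the DHT difference in siControl cells, so those comparisons share it. The siOCT1 difference in DHT does not use it, and there 16 of 29 members were at least 1.5-fold lower, against 26.0% of measured genes, and 2 were higher (ANKRD37 and MXI1), against 18.9%.

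Genes of the same pathways outside the member list were counted in 8 further lists. Other glycolysis isoforms and side enzymes had 9 of 27 measured and 1 fallen, PGAM2, the muscle-type mutase, by 1.16 ± 0.28 (adjusted p = 0.0284). Of 9 measured pentose phosphate genes 3 fell and 1 rose, against 15.3% and 9.1% of all measured genes. The pentose epimerase RPE had 10.99 and 11.41 in siControl and 9.57 and 9.93 in siOCT1 cells and fell by 1.45 ± 0.24 (adjusted p = 0.00934), and PRPS1, which makes the nucleotide precursor PRPP, fell by 1.10 ± 0.23 (adjusted p = 0.0166). The isomerase RPIA also fell (adjusted p = 0.046), with its siOCT1 vehicle value below background, a decrease of at least 1.82-fold in vehicle and of 1.73-fold in DHT.

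Against 15.3% and 9.1% of all measured genes, 3 of 12 measured genes of pyruvate dehydrogenase and its carriers fell and 0 rose. These were DLAT, the acetyltransferase subunit of the complex, by 1.01 ± 0.27 (adjusted p = 0.0357), the mitochondrial pyruvate carrier MPC1 by 0.89 ± 0.26 (adjusted p = 0.0469) and PCK2, the mitochondrial PEP carboxykinase, which lay below background on 3 arrays. PCK2 reached the measured level only on its siControl arrays. In the citrate cycle 3 of 19 fell and 2 rose. The dehydrogenase subunit IDH3A fell by 1.35 ± 0.18 (adjusted p = 0.0045) and the aspartate transaminase GOT1 by 1.69 ± 0.20 (adjusted p = 0.0036), while cytosolic aconitase ACO1, also an iron sensor, rose by 1.61 ± 0.28 (adjusted p = 0.00994). The median of the citrate cycle list was -0.25, against -0.86 for the members and -0.06 for all measured genes.

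Of 8 measured glucose and monocarboxylate transporters 1 fell and 1 rose. SLC2A12, the gene of the glucose carrier GLUT12, had 7.25 and 7.34 in siControl cells with vehicle and DHT and 9.14 and 11.13 in siOCT1 cells. It was 3.71-fold higher in vehicle and 13.8-fold higher in DHT, and rose by 2.84 ± 0.45 (adjusted p = 0.00758). The transporter of glucose 6-phosphate into the endoplasmic reticulum, SLC37A4, fell by 1.12 ± 0.31 (adjusted p = 0.0402).

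Among 17 measured regulators of glycolysis 0 fell and 2 rose. TXNIP, which restrains glucose uptake and is induced when sugar phosphates accumulate, had 12.66 and 12.27 in siControl and 14.66 and 14.71 in siOCT1 cells, and rose by 2.21 ± 0.21 (adjusted p = 0.00194). MAX, the shared partner of MYC and MXI1, rose by 0.88 ± 0.25 (adjusted p = 0.0433). MYC itself stood at -1.60 in vehicle and 0.20 in DHT (adjusted p = 0.259).

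Of 11 measured genes of the HIF machinery 2 fell and 0 rose, against 15.3% and 9.1% of all measured genes. VHL, the ubiquitin ligase subunit that removes HIF alpha subunits, had 8.93 and 8.81 in siControl and 7.0, below background, and 7.61 in siOCT1 cells. It fell in the fit (adjusted p = 0.0146), at least 2.90-fold in vehicle and 2.29-fold in DHT. ARNT, the partner of HIF1A, had 11.55 and 11.15 against 10.69 and 10.10 and fell by 0.95 ± 0.24 (adjusted p = 0.0325). Other HIF targets had 28 of 40 measured, with 8 fallen and 3 risen. ERO1A, an oxidase of protein folding, had 13.24 and 12.29 in siControl and 9.84 and 9.79 in siOCT1 cells and fell by 2.95 ± 0.29 (adjusted p = 0.00203). The lysyl oxidase LOX fell in the fit (adjusted p = 0.00551) with both siOCT1 values below background. Its decrease was at least 4.23-fold in DHT, and its vehicle pair supports no fold. IGFBP3, a carrier of insulin-like growth factors, rose by 2.77 ± 0.36 (adjusted p = 0.00435). Its siRNA groups overlapped, with 13.06 and 8.93 in siControl and 15.07 and 12.46 in siOCT1 cells, since siControl with vehicle exceeded siOCT1 with DHT. Over all measured genes 15.3% were called lower and 9.1% higher. Counts called lower near that background were 3 of 19 in the citrate cycle and 2 of 11 in the HIF machinery. So were those of the other glycolysis isoforms (1 of 9) and the transporters (1 of 8). Counts called higher near it were 2 of 17 regulators, 2 of 19 citrate cycle genes and 3 of 28 other HIF targets. The same holds for the pentose phosphate genes (1 of 9) and the transporters (1 of 8).

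**Figure D4:**
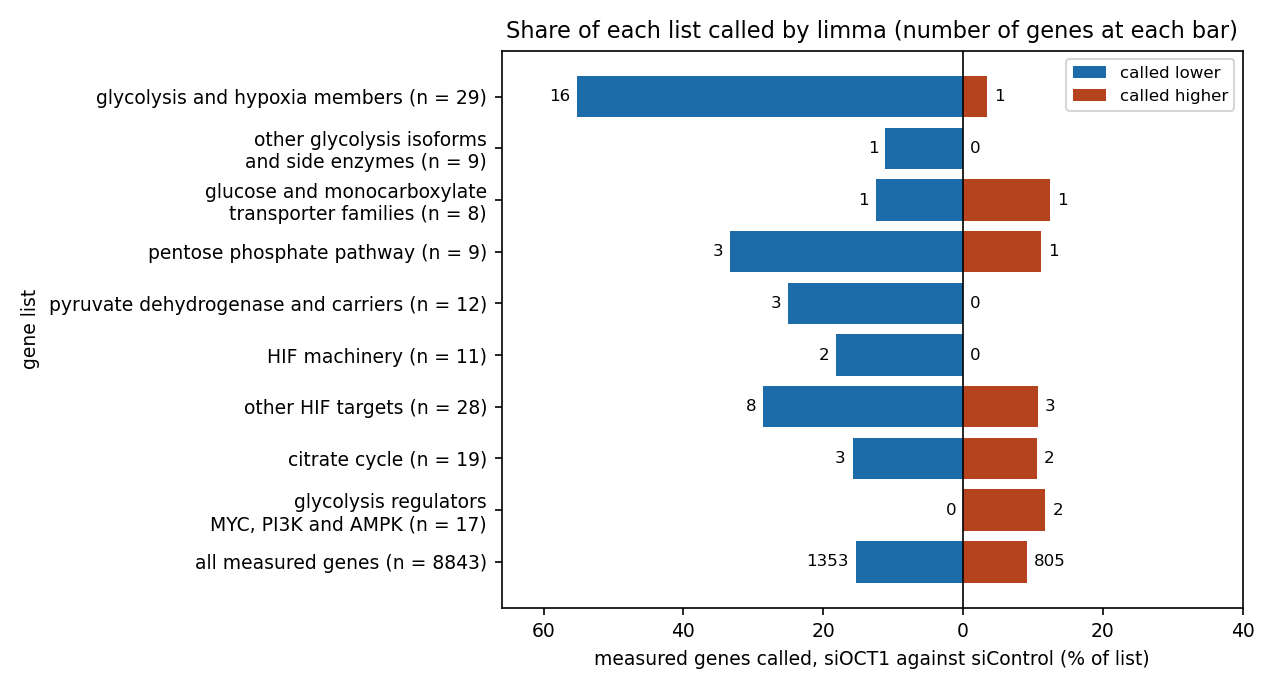
Share of the measured genes of each list called by limma for siOCT1 against siControl, in percent of the list, with bars to the left for genes called lower and to the right for genes called higher and the number of genes at each bar. The members have 16 of 29 called lower, and all measured genes 1353 of 8843.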

How the data were processed

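Each of the 4 groups gave 1 total RNA sample, measured on 1 Affymetrix whole-transcript array. The authors deposited log2 signals from RMA, run in Expression Console per the submitters' processing notes, whose version and genome build are not given in the sources used here. That method brings all arrays to a common distribution, which hides a global change. Base 2 was inferred from the range of values.

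The platform annotation paired 17709 of 24351 probe sets with 1 symbol and 0 with several, and left 3739 transcript probe sets unnamed. The named ones gave 17687 genes, and for the 20 genes measured by several probe sets the one with the highest mean was taken. The additive model was fitted with limma 3.58.1 (lmFit, eBayes with trend) in R 4.3.3 and tested on simulated data; the rest used Python 3.11.15 with pandas 2.3.3, numpy 2.4.6, statsmodels 0.14.6 and matplotlib 3.10.9. "At least N-fold" is the brighter value over the background of the dimmer array. Members, lists and tests were chosen with earlier results of these data known. Values on each array are printed for members called or past 1.5-fold in both ligand states, and for HIF1A, EGLN1 and BNIP3L, with differences alone for the other members. Also named are the 3 highest and lowest changes of the DHT response, and up to 3 called genes per further list; PDK2, PDK3, MYC and genes called for DHT outside the members were named after their values were seen. Alternatives were a 2-fold rule, other filters, probe set means, centring on positive controls, loess, 32 added before the logarithm, values raised to background, and eBayes without trend or robust.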

Additional observations from a re-analysis of the deposited data

Results flagged for a closer look

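MXI1, the MAX partner that opposes MYC, had DHT responses of opposite direction under the siRNAs, both past 1.5-fold and all on arrays above background: -0.76 in siControl cells and 0.62 in siOCT1 cells. The change of the response was 1.38. Centring on positive controls moves DHT differences in siOCT1 cells by -0.062, which takes the siOCT1 response of MXI1 under 1.5-fold. With 1 array per group this difference was not tested.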

How the results depend on the processing

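The count of 17 members called for siOCT1 was 11, all lower, without a filter on dim genes. It was also 11, all lower, after lifting dim values to the top background. Genes at that floor on every array were left out there, and of the 7734 that remained 920 were called lower and 485 higher. Under the other alternatives the count of members was 12 to 17. LDHA, BNIP3, PDK1, VEGFA, PKM, ENO1, PGK1, ALDOC, PFKL and P4HA1, 10 of the 17, kept their call under every alternative run, and no uncalled member gained one. For PDK1 that means 8 of 9 alternative fits, since the fit limited to genes above background on all 4 arrays leaves it out. The 17 members past 1.5-fold in both ligand states numbered 5 at 2-fold. Counts over all genes without the filter, without trend and at 2-fold are not given here. The 1 member past 1.5-fold for DHT under both siRNAs became 0 at 2-fold and 2 with positive-control centring, loess or no filter. BNIP3L turned from -0.025 to 0.082 with positive-control centring and 0.153 with loess. The medians of the fitted siOCT1 and DHT differences, each a mean over both pairs, and of the change of the response kept their sign throughout. The median DHT difference in siOCT1 cells alone did not, turning from 0.04 to -0.03 with positive-control centring. Leaving out an array leaves no residual degree of freedom. No paired analysis was possible because each group holds 1 array and the labels give no replicate numbers.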

Other observations

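Outside the members, 5 of 28 other measured HIF targets were called for DHT, 3 lower and 2 higher, against 0.305% and 0.679% of all measured genes. NDRG1, a stress-response gene also known as androgen-induced, had 7.45 with vehicle and 10.72 with DHT in siControl cells and 6.13 and 9.89 in siOCT1 cells. The siOCT1 vehicle value lay below background. NDRG1 rose with DHT (limma adjusted p = 0.00406), 9.64-fold under siControl and under siOCT1 by at least 5.63-fold, and fell with siOCT1 (adjusted p = 0.0338), 1.78-fold in DHT and at least 1.04-fold in vehicle. AK4, a mitochondrial adenylate kinase, had 10.16 and 11.77 in siControl and 8.16 and 9.65 in siOCT1 cells. It rose by 1.55 ± 0.25 with DHT (adjusted p = 0.0483) and fell by 2.06 ± 0.25 with siOCT1 (adjusted p = 0.0038).

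IGFBP3 fell by 3.37 ± 0.36 with DHT (adjusted p = 0.0145), from 13.06 to 8.93 in siControl cells and from 15.07 to 12.46 in siOCT1 cells. PYGL, the liver-type glycogen phosphorylase, had 9.32 and 6.76 in siControl and 10.14 and 8.36 in siOCT1 cells, the value in siControl with DHT being below background. It fell with DHT (adjusted p = 0.0286), at least 5.04-fold in siControl and 3.43-fold in siOCT1 cells. TMEM45A was at least 6.82-fold lower with DHT in siControl and at least 2.40-fold lower in siOCT1 cells (adjusted p = 0.0338). Both of its DHT values lay below background. TMEM45A reached the measured level only on its vehicle arrays, where it is high, yet it is counted above among those called lower for DHT.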
